A study of Mus musculus with 18 samples.

Results

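*Map3k8*, a kinase that can start the ERK cascade, and 9 genes whose mRNA responds to ERK signaling (*Dusp4*, *Dusp6*, *Spry2*, *Spry4*, *Spred1*, *Fos*, *Egr1*, *Etv4* and *Etv5*) were followed across 6 siRNA groups of mouse Neuro-2a (N2A) cells, a neuroblastoma line. The 10 genes were listed by symbol and matched to the Ensembl identifiers of the count table, so they are 10 of 55414 genes, and all 10 were among the 19003 genes with enough counts to test. *Map3k8* was selected on its own values, because it was higher in both knockdowns than in the controls. Its differences from the controls are therefore described here without a test. The other 9 were listed for their place in the pathway. The cells were transfected with 1 of 2 scrambled negative control siRNAs (Scramble KD), 1 of 2 siRNAs against *Fmr1*, which encodes FMRP (*Fmr1* KD), or 1 of 2 siRNAs against *Zfp598*, which the labels call znf and which encodes a ubiquitin ligase that recognizes collided ribosomes (*Zfp598* KD). Each siRNA, called A or B, had 3 libraries, which gives 6 libraries for each condition and 18 in all. RNA was extracted 72 h after transfection and rRNA was removed. All groups carry the same parental line, a transient transfection and a control or targeting siRNA. The study describes the 3 libraries of an siRNA as a triplicate, without saying in the sources used here whether these were separate cultures. In comparisons of siRNAs, p-values therefore measure the spread between these libraries. Pooled comparisons take the 6 libraries of a condition as replicates, although they come from 2 siRNAs. Their spread therefore also holds differences between the siRNAs of a condition.

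In the ERK cascade, receptors at the cell surface load RAS with GTP, RAS activates RAF kinases, RAF phosphorylates MEK, and MEK phosphorylates ERK. MAP3K8 (also named TPL2 or COT) is a second route to MEK, best known downstream of Toll-like and TNF receptors in immune cells, where it is held by NF-kB1 p105 until the IKK complex releases it. Active ERK induces immediate early genes (*Fos*, *Egr1*), ETS factors (*Etv4*, *Etv5*) and its own inhibitors (DUSP phosphatases, Sprouty and SPRED proteins), and the mRNA levels of these genes are widely used as a readout of the pathway.

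Total counts per library were 7674724 to 15414590. The siRNA targets were lowered as labeled: *Fmr1* was at 60.1 ± 6.41 CPM (counts relative to the TMM-scaled library size; SD, n = 6) in Scramble KD and 22.4 ± 5.10 CPM in *Fmr1* KD, and, by siRNA, at 18.2 ± 3.34 CPM with siRNA A and 26.5 ± 1.15 CPM with siRNA B (SD, n = 3 each), without overlap (log2 difference 0.55, adjusted p = 0.00232 in edgeR's test). *Zfp598* was at 117.9 ± 9.52 CPM in Scramble KD and 41.02 ± 5.37 CPM in *Zfp598* KD. Of 13 markers of noradrenergic neuroblastoma cells and neurons, 10 were at or above 1 CPM in every library, whereas *Nefl* and *Nefm*, which encode neurofilament subunits, were below 1 CPM in every library. Markers of fibroblasts, epithelial, immune and endothelial cells summed to at most 5.48, 10.1, 3.18 and 13.7 CPM. In all, 3 libraries stood apart. In *Zfp598* siRNA A replicates 2 and 3 the most counted feature, which has no entry in the annotation used here, took 15.2% and 25.8% of the counts, against 5.00% to 11.1% elsewhere. In *Fmr1* siRNA B replicate 1 the summed level of 9 stem cell markers was 62.5 CPM, against at most 10.2 CPM in any other library, and 8 of the 9 were highest there. Values without these libraries are given beside some of the calls that they changed, and in some counts of output genes.

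*Map3k8* mRNA was scarce in every library. It lies on chromosome 18 of GRCm39 (4331327 to 4353463, minus strand). Its counts were 1, 7 and 6 in the Scramble siRNA A libraries and 3, 1 and 4 in the Scramble siRNA B libraries. They were 19, 12 and 19 with *Fmr1* siRNA A and 22, 12 and 13 with *Fmr1* siRNA B. They were 10, 4 and 3 with *Zfp598* siRNA A and 11, 12 and 14 with *Zfp598* siRNA B. All 6 *Fmr1* KD libraries and the 3 *Zfp598* siRNA B libraries had more counts than any Scramble KD library, whereas the *Zfp598* siRNA A libraries overlapped those of Scramble siRNA A. No Scramble KD library reached the filter's minimum count of 10, so the gene entered the tested set through the libraries in which it was high.

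On the CPM scale *Map3k8* was at 0.326 ± 0.207 with Scramble siRNA A and 0.175 ± 0.0935 with Scramble siRNA B (SD, n = 3 each). It was at 1.17 ± 0.314 and 1.07 ± 0.352 with *Fmr1* siRNAs A and B, and at 0.568 ± 0.164 and 0.991 ± 0.189 with *Zfp598* siRNAs A and B (SD, n = 3 each). In the order of means, only *Zfp598* siRNA B and *Zfp598* siRNA A were neighbors whose libraries did not overlap. With both siRNAs pooled, these values, which chose the gene, correspond to log2 fold changes of 2.09 (standard error 0.372) in *Fmr1* KD and 1.61 (standard error 0.393) in *Zfp598* KD.

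Summed over libraries and scaled to library size, the 97 *Map3k8* counts in *Fmr1* KD were 4.33-fold the 22 in Scramble KD, and the 54 counts in *Zfp598* KD were 3.17-fold. The 17 counts with *Zfp598* siRNA A were 1.73-fold the 14 with Scramble siRNA A and 2.32-fold the counts of both Scramble siRNAs, and the 37 counts with *Zfp598* siRNA B were 5.49-fold the 8 with Scramble siRNA B. These ratios are also values that chose the gene, and totals as small as 8 and 14 carry much counting error. Without *Fmr1* siRNA B replicate 1, the fitted log2 fold change of *Map3k8* with *Fmr1* siRNA B against Scramble siRNA B was 2.21 in place of 2.53.

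Between the Scramble siRNAs *Map3k8* differed by -0.90 on the log2 scale (B minus A), which is given without a test because all 6 of these libraries were below the minimum count of the filter. Differences between siRNAs against the same target are also given without a test, because high values in these libraries chose the gene. The *Fmr1* siRNAs differed by -0.12 (B minus A, 95% interval -0.95 to 0.72). The *Zfp598* siRNAs differed by 0.74 (interval -0.27 to 1.74), an interval that includes differences of more than 2-fold. Their libraries did not overlap, at 3 to 10 counts with *Zfp598* siRNA A and 11 to 14 with *Zfp598* siRNA B. Agreement between the siRNAs of a target is therefore not shown by these values. All adjusted p given here are from edgeR, by quasi-likelihood tests adjusted over the 19003 genes. The exons of *Map3k8* share 612 of their 4973 bases with 4833419F23Rik on the opposite strand, and the sources used here do not state whether counting used strand. That gene had 0 to 5 counts per library and 11 in all, of which 5 were in 1 *Zfp598* siRNA A library.

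**Figure D1:**
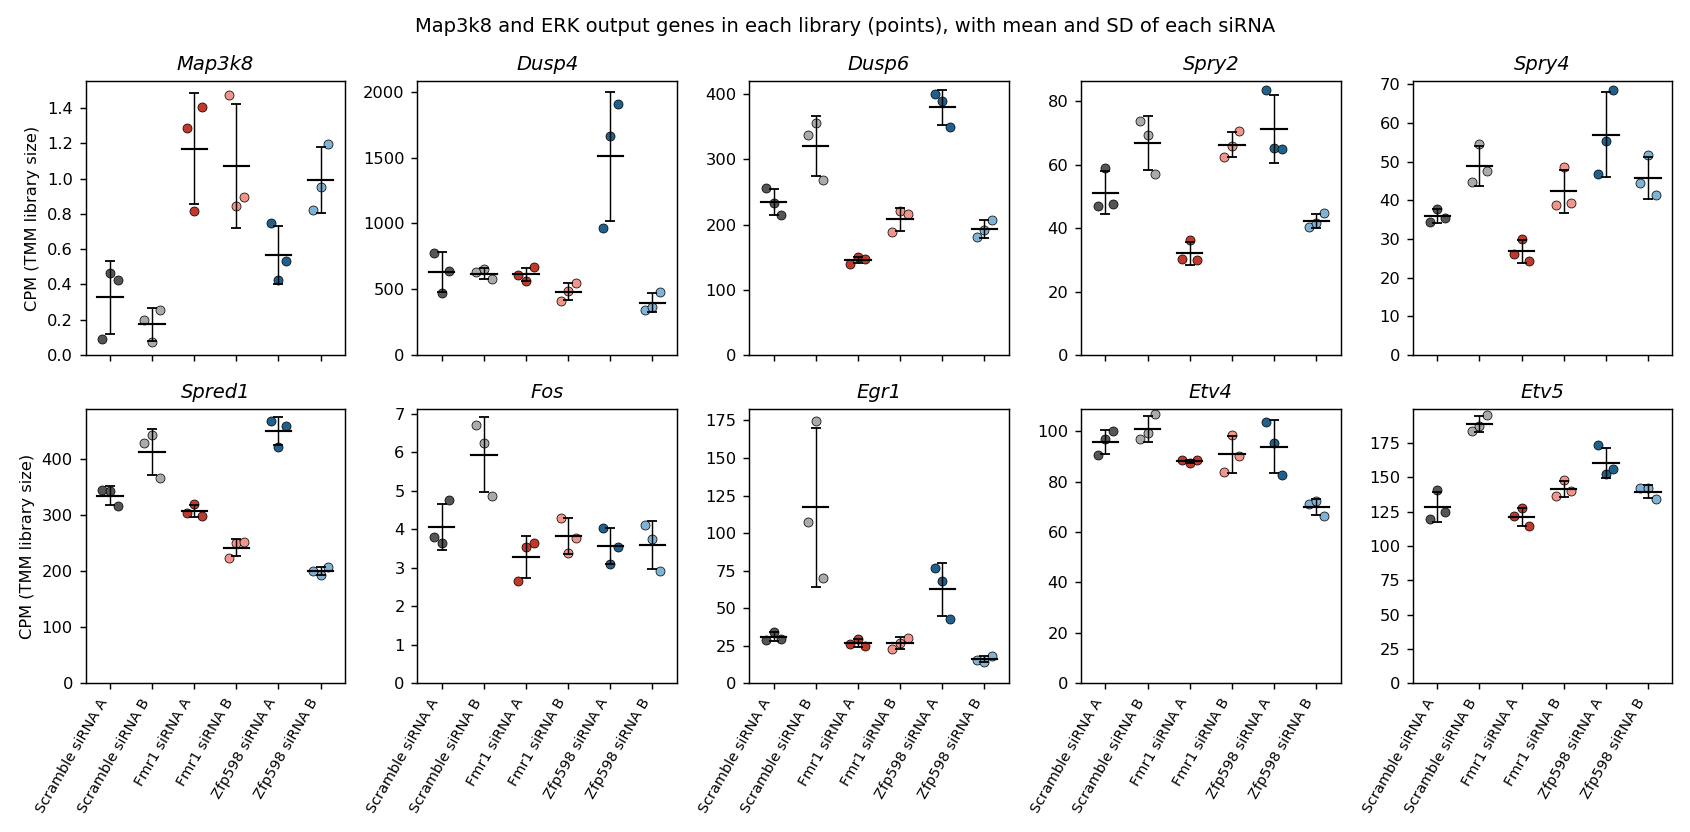
Level of *Map3k8* and of the 9 ERK output genes in each of the 18 libraries (points, CPM on TMM library sizes, each axis from 0), with the mean and SD of the 3 libraries of each siRNA (lines and bars). *Map3k8* reaches at most 1.48 CPM and is above all Scramble libraries in the *Fmr1* siRNA libraries, while *Dusp6*, *Spry2*, *Spred1* and *Egr1* have higher means with *Zfp598* siRNA A than with *Zfp598* siRNA B.

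The output genes were far more abundant. Per kilobase of exon, and as means over the 18 libraries, the order was *Dusp4* (246.1 CPM per kb), *Dusp6* (72.9), *Spred1* (41.7), *Etv4* (28.4), *Etv5* (19.6), *Spry2* (10.7), *Egr1* (10.4), *Spry4* (6.48) and *Fos* (1.71), with *Map3k8* at 0.144 CPM per kb. The place of *Egr1* differed by group, from 3.57 CPM per kb with *Zfp598* siRNA B, below *Spry4* (6.94), to 26.1 with Scramble siRNA B, above *Etv5* (25.2). *Dusp4* and *Dusp6* encode the phosphatases MKP-2 (nuclear) and MKP-3 (cytoplasmic), of which MKP-3 is specific for ERK. Between libraries of the same siRNA, *Etv5*, *Spred1* and *Etv4* varied least (SD of 0.0799, 0.0887 and 0.0962 on the log2 scale), and *Map3k8* varied most (0.452), followed by *Egr1* (0.351) and *Dusp4* (0.298).

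The DNA just upstream of these genes is shown for 4 of the 5 members that have a match to the octamer bound by Capicua (CIC), a repressor of *Etv4*, *Etv5* and other ERK-responsive genes that ERK signaling inactivates, and for *Dusp6*, which has no match. The window of *Spry4*, the fifth with a match, is not printed. Each window is the 250 bases before the start of the canonical GENCODE M39 transcript in GRCm39, written 5′ to 3′ on the gene's strand. Capitals mark the octamer (TCAATGAA, TCAATGGA, TGAATGAA or TGAATGGA on either strand) and, in *Etv5*, also an AP-1 site (TGACTCA). The windows are chr8:35274192-35274441 (plus strand) for *Dusp4*, chr10:99098818-99099067 (plus) for *Dusp6*, chr11:101676198-101676447 (minus) for *Etv4*, chr16:22258484-22258733 (minus) for *Etv5* and chr12:85520408-85520657 (plus) for *Fos*.
Dusp4: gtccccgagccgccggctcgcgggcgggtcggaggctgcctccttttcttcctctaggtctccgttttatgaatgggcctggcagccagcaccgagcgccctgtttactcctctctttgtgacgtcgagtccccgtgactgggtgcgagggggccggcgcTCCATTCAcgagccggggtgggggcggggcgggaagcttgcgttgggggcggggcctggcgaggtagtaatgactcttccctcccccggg
Dusp6: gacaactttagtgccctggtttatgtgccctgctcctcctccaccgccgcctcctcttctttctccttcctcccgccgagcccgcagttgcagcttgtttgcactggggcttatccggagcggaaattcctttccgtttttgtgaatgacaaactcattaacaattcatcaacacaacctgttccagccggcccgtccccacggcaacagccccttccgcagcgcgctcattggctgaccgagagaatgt
Etv4: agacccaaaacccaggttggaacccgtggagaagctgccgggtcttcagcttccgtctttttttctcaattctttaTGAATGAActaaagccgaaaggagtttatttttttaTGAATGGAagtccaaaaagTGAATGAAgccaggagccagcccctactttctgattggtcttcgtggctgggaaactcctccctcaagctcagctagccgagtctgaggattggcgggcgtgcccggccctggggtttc
Etv5: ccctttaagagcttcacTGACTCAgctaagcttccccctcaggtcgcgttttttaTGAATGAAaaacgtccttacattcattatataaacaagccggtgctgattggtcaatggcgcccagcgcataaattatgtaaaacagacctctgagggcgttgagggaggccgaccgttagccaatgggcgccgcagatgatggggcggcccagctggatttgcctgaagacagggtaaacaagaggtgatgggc
Fos: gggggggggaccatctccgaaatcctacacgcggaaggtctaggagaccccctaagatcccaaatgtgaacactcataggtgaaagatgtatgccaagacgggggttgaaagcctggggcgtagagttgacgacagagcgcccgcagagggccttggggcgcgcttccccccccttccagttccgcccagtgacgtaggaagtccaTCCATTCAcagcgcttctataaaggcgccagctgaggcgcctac

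The octamer occurred in 5 of the 10 windows, those printed for *Dusp4*, *Etv4*, *Etv5* and *Fos* and that of *Spry4*, and *Etv4* held 3 copies. It occurred in 3.03% of the 21614 such windows of protein-coding genes. It was chosen after the windows were seen, so its share is a description of these letters. The ETS core CCGGAA occurred in 1 member window (*Spry4*) and in 12.4% of all windows, and the AP-1 site (TGACTCA or TGAGTCA) in 1 (*Etv5*) and in 4.03%. A full CRE (TGACGTCA) and a CArG box occurred in no member window, and in 1.69% and 1.41% of all windows. Of the members with the octamer, *Dusp4* and *Spry4* had their highest mean with *Zfp598* siRNA A, and *Fos*, *Etv4* and *Etv5* with Scramble siRNA B. A link between the octamer and these levels was not tested.

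With both siRNAs of each condition pooled, 0 of the 9 output genes passed in either knockdown in edgeR's test (adjusted p under 0.05). Among all genes 2.62% passed as higher and 3.43% as lower in *Fmr1* KD, and 0.831% and 0.968% in *Zfp598* KD. In *Fmr1* KD all 9 fitted values were below 0, with a median log2 fold change of -0.30 against 0.01 over all genes. Of the 9, 5 were lower at an unadjusted p under 0.05. DESeq2 called 2 lower, *Dusp6* and *Egr1*, where it called 997 of all genes lower. In *Zfp598* KD the median of the 9 was -0.08 against 0.01, and 3 were lower at an unadjusted p under 0.05. DESeq2 called 0 of the 9 there, and of all genes 461 higher and 453 lower. The share of all genes at an unadjusted p is not given here, so the unadjusted counts cannot be set against it. Nearest to the threshold in *Fmr1* KD were *Egr1* (log2 fold change -1.47, standard error 0.444, adjusted p = 0.0514) and *Dusp6* (-0.65, standard error 0.199, adjusted p = 0.0555). With the siRNA letter as a block both passed as lower in edgeR's test (adjusted p = 0.0492 and 0.0448). One or both passed in 8 of the 18 fits that left out 1 library, those without a Scramble siRNA A or a *Zfp598* siRNA A library and without *Zfp598* siRNA B replicate 1 or 2.

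The pooled values rest on siRNAs that differed from each other, so each knockdown siRNA was set against the Scramble siRNA that has its letter, and against both, since no label says that siRNAs of the same letter belong together. Comparisons against the same Scramble libraries share those libraries. With *Fmr1* siRNA A, 3 output genes fell (*Dusp6*, *Spry2* and *Spry4*), where 12.7% of all genes passed as lower and 9.35% as higher. With *Fmr1* siRNA B, 5 fell (*Dusp6*, *Spred1*, *Fos*, *Egr1* and *Etv5*), where 10.4% passed as lower and 11.0% as higher. With *Zfp598* siRNA A, 7 rose (all but *Fos* and *Etv4*), where 5.60% passed as higher and 5.43% as lower. With *Zfp598* siRNA B, 8 fell (all but *Spry4*), where 13.2% passed as lower and 12.0% as higher. The median log2 fold changes of the 9 genes in these comparisons were -0.21, -0.42, 0.48 and -0.66, each against 0.00 to 0.01 over all genes.

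The choice of control moved 3 of these 4 counts by over 1.5 times. Against both Scramble siRNAs, 7 output genes were lower with *Fmr1* siRNA A (14.5% of all genes), 3 with *Fmr1* siRNA B (9.45%) and 6 with *Zfp598* siRNA B (15.0%), and 4 were higher with *Zfp598* siRNA A (9.81%). *Dusp6* passed against either control with every knockdown siRNA, lower with both *Fmr1* siRNAs and *Zfp598* siRNA B and higher with *Zfp598* siRNA A. Leaving out *Zfp598* siRNA A replicates 2 and 3 keeps only replicate 1 of that siRNA, so effect sizes alone are given. Against Scramble siRNA A the log2 differences were then 1.31 for *Egr1*, 0.77 for *Dusp6*, 0.70 for *Spry2*, 0.61 for *Dusp4*, 0.48 for *Spred1*, 0.43 for *Etv5* and 0.38 for *Spry4*. Without *Fmr1* siRNA B replicate 1, 5 output genes were again lower with *Fmr1* siRNA B than with Scramble siRNA B. In the fits that left out 1 library, 3033 to 5105 of all genes passed in this comparison, in either direction.

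**Figure D2:**
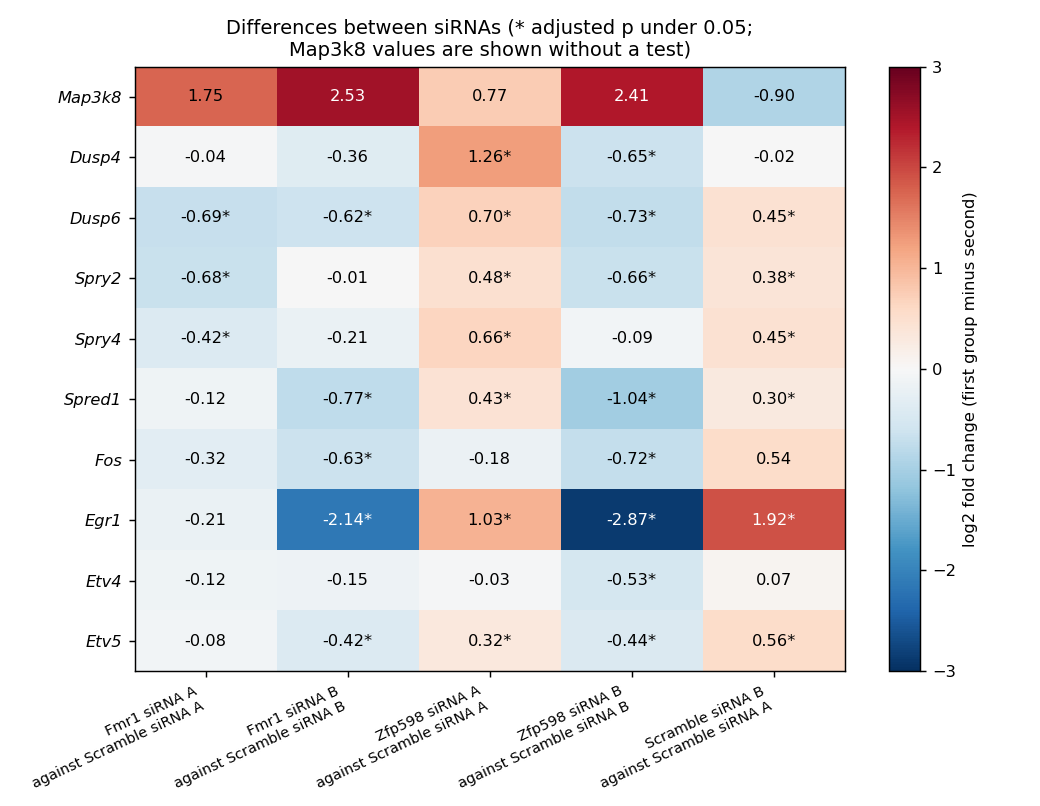
Log2 fold change (color and printed value) of each gene (rows) for each knockdown siRNA against the Scramble siRNA of its letter and for Scramble siRNA B against A (columns). Asterisks mark an adjusted p under 0.05 in edgeR's test. The values of *Map3k8* are shown without a test, since its rise in the knockdowns chose the gene. Of the 36 values of the other genes in the 4 knockdown columns 29 are negative, where the medians over all genes are 0.00 to 0.01. Columns of the same letter share Scramble libraries, and 8 of the 9 output genes have positive values for Scramble siRNA B against A.

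*Dusp6* lies on chromosome 10 (99086564 to 99103361, plus strand). Its levels were 256, 233 and 215 CPM with Scramble siRNA A and 337, 356 and 269 CPM with Scramble siRNA B. They were 140.1, 149.9 and 146.9 CPM with *Fmr1* siRNA A and 188, 220.2 and 217 CPM with *Fmr1* siRNA B. They were 401, 389 and 349 CPM with *Zfp598* siRNA A and 181, 191 and 208 CPM with *Zfp598* siRNA B. The *Fmr1* siRNA A libraries were the lowest 3 of the 18, and each knockdown siRNA was separated from the Scramble siRNA of its letter without overlap. Across letters, the *Fmr1* siRNA B libraries overlapped those of Scramble siRNA A, and the *Zfp598* siRNA A libraries overlapped those of Scramble siRNA B. With *Fmr1* siRNA A *Dusp6* fell by 0.69 on the log2 scale (standard error 0.102, adjusted p = 4.24e-05), and with *Fmr1* siRNA B by 0.62 (standard error 0.101, adjusted p = 0.000144). The knockdown effects of the *Fmr1* siRNAs differed by 0.07 (B minus A, 95% interval -0.23 to 0.37, adjusted p = 0.806). It rose by 0.70 with *Zfp598* siRNA A (adjusted p = 0.000147) and fell by 0.73 with *Zfp598* siRNA B (adjusted p = 2.17e-05).

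*Dusp4*, on chromosome 8 (35274442 to 35287048, plus strand), was highest in *Zfp598* siRNA A, where the most counted feature also took its largest shares. Its levels with *Zfp598* siRNA A were 963, 1663 and 1906 CPM, against 777, 470.2 and 639 CPM with Scramble siRNA A. They were 344, 364 and 478 CPM with *Zfp598* siRNA B, against 627, 654 and 577 CPM with Scramble siRNA B. With *Fmr1* siRNAs A and B they were 565 to 667 CPM and 414 to 545 CPM. Thus the *Zfp598* siRNA A libraries were above all others, the *Zfp598* siRNA B libraries were below those of Scramble siRNA B, and the *Fmr1* siRNA A libraries overlapped those of both Scramble siRNAs. *Dusp4* rose by 1.26 on the log2 scale with *Zfp598* siRNA A (standard error 0.196, adjusted p = 0.000266) and fell by 0.65 with *Zfp598* siRNA B (standard error 0.194, adjusted p = 0.0178). The call with siRNA B was lost without Scramble siRNA B replicate 2 (-0.61, adjusted p = 0.0588) and without *Zfp598* siRNA B replicate 1 or 2 (-0.55 and -0.59, adjusted p = 0.0902 and 0.0730).

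In *Zfp598* siRNA A the order of *Dusp4* followed the share of the most counted feature, at 5.67%, 15.2% and 25.8%. The same order held within 4 of the 6 siRNAs. The exceptions were Scramble siRNA B and *Fmr1* siRNA B, whose shares varied little, from 5.56% to 5.68% and from 5.98% to 6.06%. Over the 18 libraries the correlation of log2 *Dusp4* CPM with the log2 share was 0.81. Over the 16 libraries other than *Zfp598* siRNA A replicates 2 and 3 it was 0.342. Leaving out these 2 libraries keeps only replicate 1 of *Zfp598* siRNA A, so effect sizes alone are given for that siRNA. *Dusp4* was then higher by 0.61 with *Zfp598* siRNA A than with Scramble siRNA A. The log2 difference of *Zfp598* siRNA B from *Zfp598* siRNA A was -1.29. The pooled value of *Dusp4* in *Zfp598* KD changed from 0.61 (adjusted p = 0.336) to -0.22 (adjusted p = 0.608). The part of this share in the result was not tested further. For the other 8 output genes the correlation with the share lay between -0.302 and 0.349 over the 18 libraries. Over the 16 libraries it was negative for all 8, from -0.578 (*Etv5*), -0.404 (*Spry4*) and -0.344 (*Spry2*) to -0.0875 (*Spred1*).

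**Figure D3:**
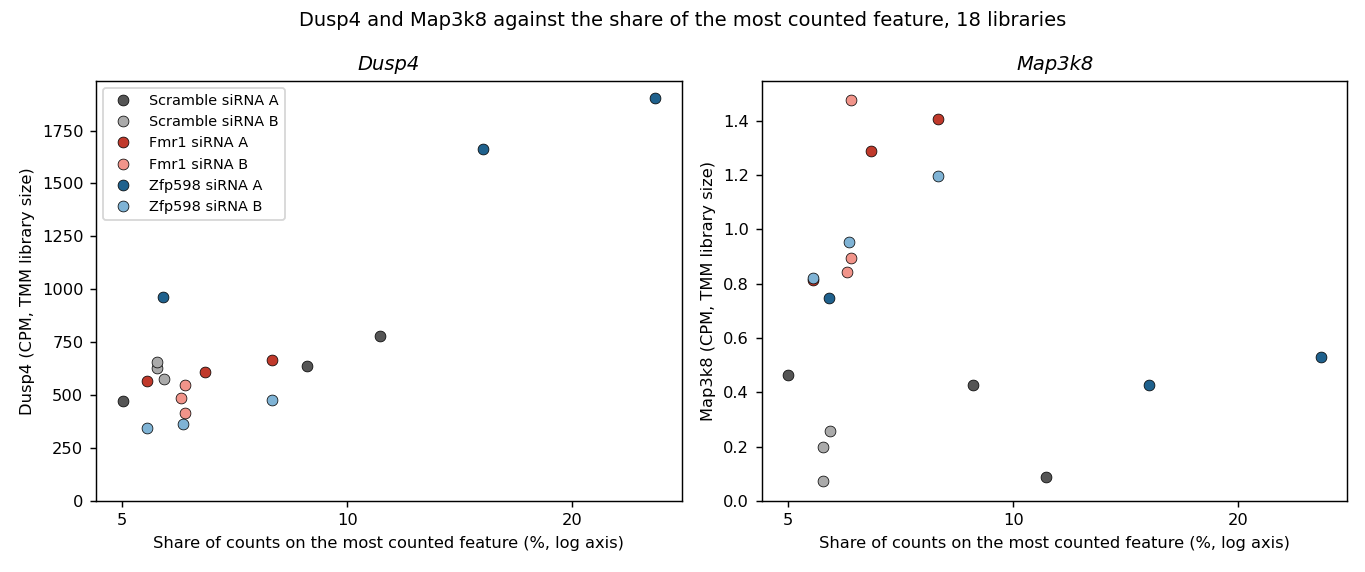
*Dusp4* (left) and *Map3k8* (right) in each of the 18 libraries (CPM, axis from 0) against the share of counts on the most counted feature (percent, log axis), with colors for the siRNA. The *Dusp4* values of *Zfp598* siRNA A replicates 2 and 3, at shares of 15.2% and 25.8%, are the highest at 1663 and 1906 CPM, while *Map3k8* in these libraries is at 0.426 and 0.531 CPM.

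Sprouty and SPRED proteins bind to and restrain RAS and RAF activation. *Spred1*, on chromosome 2 (116951524 to 117018277, plus strand), was at 344, 343 and 315 CPM with Scramble siRNA A and at 427, 443 and 366 CPM with Scramble siRNA B. With *Fmr1* siRNA A it was at 303, 319 and 298 CPM, and with *Fmr1* siRNA B at 224, 249.8 and 251 CPM. With *Zfp598* siRNA A it was at 468, 422 and 459 CPM, and with *Zfp598* siRNA B at 199.96, 192 and 207 CPM. Every siRNA B library of both knockdowns was therefore below every Scramble library, and the *Zfp598* siRNA B libraries were the lowest of all 18. With *Fmr1* siRNA B *Spred1* fell by 0.77 (standard error 0.0826, adjusted p = 1.07e-06) and by 1.04 with *Zfp598* siRNA B (standard error 0.0832, adjusted p = 2.83e-08). With *Fmr1* siRNA A the difference was -0.12 (adjusted p = 0.315).

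*Spry2* (chromosome 14, 106128766 to 106136446, minus strand) was lowest with *Fmr1* siRNA A, at 29.8, 30.2 and 36.2 CPM, against 47.0 to 59.01 CPM with Scramble siRNA A. It fell there by 0.68 on the log2 scale (standard error 0.123, adjusted p = 0.000384) and by 0.66 with *Zfp598* siRNA B (adjusted p = 0.000414), and it rose by 0.48 with *Zfp598* siRNA A (adjusted p = 0.0134; 0.44 and 0.0650 without Scramble siRNA A replicate 3). With *Fmr1* siRNA B it was at 62.6 to 70.7 CPM, within the 57.2 to 73.7 CPM of Scramble siRNA B (log2 difference -0.01, 95% interval -0.26 to 0.24). *Spry4* (chromosome 18, 38719300 to 38736025, minus strand) was also lowest with *Fmr1* siRNA A, at 24.2 to 29.9 CPM, and had its highest mean with *Zfp598* siRNA A, at 46.9 to 68.6 CPM. It fell by 0.42 with *Fmr1* siRNA A (adjusted p = 0.0279), a call that was lost without *Fmr1* siRNA A replicate 1 or 3 or Scramble siRNA A replicate 2 or 3 (adjusted p of 0.0615 to 0.120). It rose by 0.66 with *Zfp598* siRNA A (adjusted p = 0.00303). Without replicates 2 and 3 of that siRNA, which keeps only replicate 1, the log2 difference was 0.38.

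*Egr1*, a zinc finger transcription factor and immediate early gene, had the widest range of the output genes. It lies on chromosome 18 (34992876 to 34998049, plus strand). Its levels with Scramble siRNA B were 107.5, 174.4 and 69.9 CPM, against 28.8, 34.2 and 29.6 CPM with Scramble siRNA A. With *Fmr1* siRNAs A and B the levels overlapped, at 24.6 to 29.4 CPM and 22.4 to 30.2 CPM. With *Zfp598* siRNA A they were 76.7, 68.02 and 43.0 CPM, and with *Zfp598* siRNA B 15.6, 14.3 and 18.2 CPM. The Scramble siRNA B libraries thus ranged from 69.9 to 174.4 CPM and overlapped only those of *Zfp598* siRNA A, and the *Zfp598* siRNA B libraries were below all others.

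Which *Egr1* change a knockdown showed depended on the Scramble siRNA. With *Fmr1* siRNA B *Egr1* fell by 2.14 against Scramble siRNA B (standard error 0.236, adjusted p = 1.55e-06), but was lower by 0.21 with *Fmr1* siRNA A against Scramble siRNA A (95% interval -0.70 to 0.29, adjusted p = 0.602). Against both Scramble siRNAs it fell by 1.17 and 1.18 with *Fmr1* siRNAs A and B (adjusted p = 0.000280 and 0.000459). It rose by 1.03 with *Zfp598* siRNA A against Scramble siRNA A (adjusted p = 0.00735), and differed by 0.07 from both Scramble siRNAs together (adjusted p = 0.844). With *Zfp598* siRNA B it fell by 2.87 against Scramble siRNA B (standard error 0.249, adjusted p = 8.62e-08) and by 1.91 against both (adjusted p = 3.08e-06).

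*Fos*, which encodes a subunit of the AP-1 transcription factor, was the least abundant output gene, at 20 to 102 counts per library. It lies on chromosome 12 (85520658 to 85524047, plus strand). Its levels were 6.71, 6.24 and 4.85 CPM with Scramble siRNA B, which were above all 15 other libraries, and 2.64 to 4.75 CPM in these. *Fos* fell by 0.63 with *Fmr1* siRNA B (standard error 0.197, adjusted p = 0.0253) and by 0.72 with *Zfp598* siRNA B (standard error 0.202, adjusted p = 0.0119). Neither call was kept against both Scramble siRNAs (adjusted p = 0.168 and 0.0701), and the first was also lost without *Fmr1* siRNA B replicate 2 or 3 or Scramble siRNA B replicate 1 or 2 (adjusted p of 0.0682 to 0.111), the second without Scramble siRNA B replicate 1 or *Zfp598* siRNA B replicate 3 (adjusted p = 0.0615 and 0.0664).

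*Etv4* and *Etv5* encode ETS factors of the PEA3 group. *Etv4* (chromosome 11, 101660568 to 101676197, minus strand) had the narrowest range of group means, at 69.97 to 101.0 CPM. Its 3 libraries with *Zfp598* siRNA B, at 71.2, 72.3 and 66.4 CPM, were below all 15 others, which were at 82.8 to 106.7 CPM, and it fell there by 0.53 on the log2 scale (standard error 0.0875, adjusted p = 0.000136). *Etv5* (chromosome 16, 22200052 to 22259662, minus strand) was at 184 to 196 CPM with Scramble siRNA B, above every other library, and at 119.6 to 140.5 CPM with Scramble siRNA A. It fell by 0.42 with *Fmr1* siRNA B (adjusted p = 0.000631) and by 0.44 with *Zfp598* siRNA B (adjusted p = 0.000362), and rose by 0.32 with *Zfp598* siRNA A (adjusted p = 0.0120). Against both Scramble siRNAs none of these 3 *Etv5* calls was kept (log2 differences -0.14, -0.16 and 0.05, adjusted p = 0.182, 0.0948 and 0.700 in edgeR's test).

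The Scramble siRNAs themselves differed at the output genes. Comparing Scramble siRNA B with Scramble siRNA A, 6 of the 9 were higher with siRNA B (*Dusp6*, *Spry2*, *Spry4*, *Spred1*, *Egr1* and *Etv5*), where 9.48% of all genes passed as higher and 11.6% as lower. *Egr1* rose by 1.92 (standard error 0.235, adjusted p = 5.60e-06), *Etv5* by 0.56 (adjusted p = 3.50e-05) and *Dusp6* by 0.45 (adjusted p = 0.00297), while *Fos* was higher by 0.54 (adjusted p = 0.0556). Without Scramble siRNA B replicate 2, 3 of the 9 passed. In the fits that left out 1 library, 2708 to 5075 of all genes passed in this comparison, in either direction. The calls of *Spry2*, *Spry4* and *Spred1*, at 0.38, 0.45 and 0.30, were also lost without Scramble siRNA A replicate 3, those of *Spry2* and *Spry4* without Scramble siRNA A replicate 1, and those of *Spry2* and *Spred1* without Scramble siRNA B replicate 1. In the same comparison 15 of 16 proliferation genes were higher, with a summed level of 2043 to 2332 CPM with siRNA B and 1066 to 1182 CPM with siRNA A. The part of this difference in the levels of the output genes was not tested.

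Directly compared with each other, the *Fmr1* siRNAs differed at 5 output genes. *Dusp6*, *Spry2*, *Spry4* and *Etv5* were higher with siRNA B (12.6% of all genes) and *Spred1* was lower (10.4%). *Spry2* differed most, by 1.05 (standard error 0.123, adjusted p = 2.45e-06). *Etv5* differed least, by 0.22 (adjusted p = 0.0480), a call lost in 14 of 18 fits with 1 library left out. Among these was the fit without *Fmr1* siRNA B replicate 1 (0.24, adjusted p = 0.0787 in edgeR's test). Proliferation genes again differed, with 15 of 16 higher with *Fmr1* siRNA B, and interferon response genes did too, with a summed level of 163 to 175 CPM with *Fmr1* siRNA A against 51.2 to 74.8 CPM in all other libraries. The *Zfp598* siRNAs differed at 6 output genes, which were all lower with siRNA B (*Dusp4*, *Dusp6*, *Spry2*, *Spred1*, *Egr1* and *Etv4*; 18.1% of all genes passed as lower and 15.2% as higher). The log2 difference was -1.98 for *Egr1* and -1.93 for *Dusp4* (adjusted p = 6.68e-06 and 6.97e-07). Without *Zfp598* siRNA A replicates 2 and 3 these differences were -2.26 and -1.29. The residual level of *Zfp598* was 40.5 ± 8.25 CPM with siRNA A and 41.6 ± 1.73 CPM with siRNA B.

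The difference between the knockdown effects of siRNA B and siRNA A, each against its Scramble siRNA, was tested as an interaction. For *Zfp598* it passed at 8 of the 9 output genes, all lower with siRNA B (all but *Fos*), where 10.6% of all genes passed as lower and 9.77% as higher. The largest were *Egr1* at -3.90 (standard error 0.342, adjusted p = 1.48e-07), *Dusp4* at -1.91 and *Spred1* at -1.47. Without *Zfp598* siRNA A replicates 2 and 3 *Dusp4* was at -1.27. For *Fmr1* the interaction passed at 4, with *Spry2* higher with siRNA B (11.6% of all genes) and *Spred1*, *Egr1* and *Etv5* lower (8.86%). For *Map3k8* the same difference was 0.78 for *Fmr1* and 1.63 for *Zfp598*, given without a test because it is built from the values that chose the gene. The Scramble difference enters each of these values, with opposite sign.

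**Figure D4:**
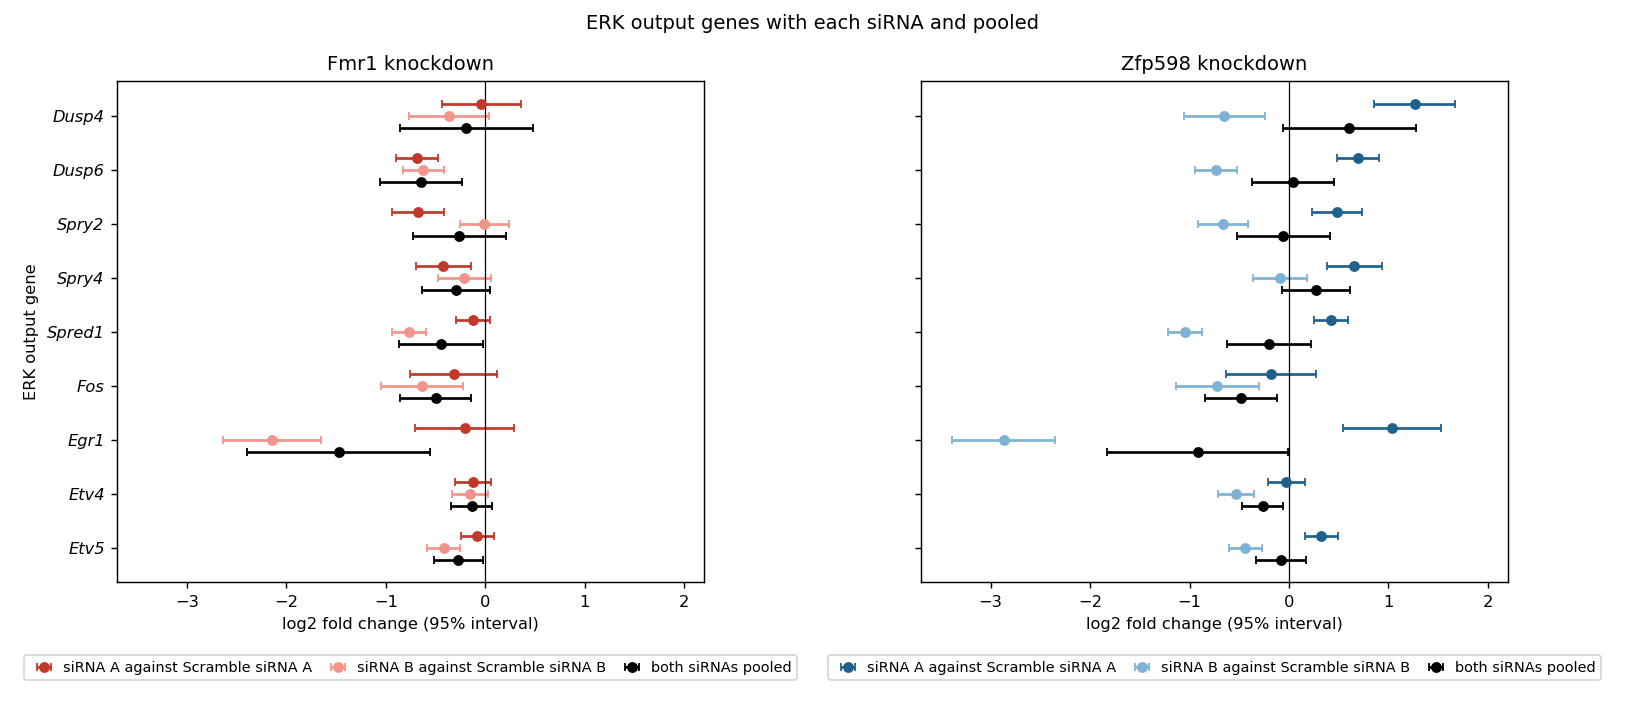
Log2 fold change with 95% interval of the 9 output genes in *Fmr1* KD (left) and *Zfp598* KD (right), for siRNA A and siRNA B against the Scramble siRNA of the same letter and for both siRNAs pooled (black). In *Zfp598* KD the siRNAs lie on opposite sides of 0 for 7 genes (*Dusp4*, *Dusp6*, *Spry2*, *Spry4*, *Spred1*, *Egr1* and *Etv5*), and the pooled values of these genes lie between them.

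Across the 18 libraries, the levels of the other 8 output genes had a positive Pearson r of log2 CPM with *Dusp6*, from 0.417 (*Fos*) and 0.444 (*Etv4*) to 0.774 (*Egr1*) and 0.834 (*Spry2*). *Map3k8* had a negative r with all 9, from -0.307 (*Dusp4*) to -0.644 (*Dusp6*) and -0.695 (*Egr1*). The libraries share groups of siRNAs, and at 1 to 22 counts the *Map3k8* levels carry much counting error, so these are descriptions. Of the 19003 genes the 5 most like *Map3k8* over the 18 libraries were *Cenpt* (r = 0.892), *Gabrb1* (0.874), *Rtf1* (0.865), *Mmrn2* (0.863) and *Zbtb1* (0.858). The 5 most like *Dusp6* were *Samd5* (0.968), *Pgk1* (0.959), *Sh2b3* (0.951), *Ace* (0.942) and *Xlr3b* (0.941), and the member nearest to *Dusp6*, *Spry2*, ranked 148.

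Genes upstream of and beside these members were counted in the pooled comparisons, where 2.62% of all genes were higher and 3.43% lower in *Fmr1* KD, and 0.831% higher and 0.968% lower in *Zfp598* KD. These shares belong to edgeR's adjusted p. Over all genes DESeq2 called 750 higher and 997 lower in *Fmr1* KD, and 461 higher and 453 lower in *Zfp598* KD. For counts at an unadjusted p no share of all genes is given. Of 15 tested receptor genes, *Pdgfra*, a receptor for PDGF, rose by 0.96 in *Fmr1* KD (12.8 ± 1.65 against 6.57 ± 1.57 CPM; SD, n = 6; adjusted p = 0.00224) and its relative *Pdgfrb* fell by 0.97 (14.4 ± 3.52 against 28.2 ± 3.39 CPM; adjusted p = 0.00361). *Pdgfrb* was also the receptor gene that passed in *Zfp598* KD, where it fell by 0.96 (14.6 ± 4.68 CPM; adjusted p = 0.0144). Of 27 genes of the RAS to ERK cascade, 3 passed in *Fmr1* KD. The adaptor *Shc1* rose by 0.49 (adjusted p = 0.00211), whereas the RAS GTPase activating gene *Rasa2* fell by 0.48 (adjusted p = 0.00463) and *Map2k1*, which encodes MEK1, fell by 0.37 (adjusted p = 0.0102). In *Zfp598* KD 0 of the 27 passed in edgeR's test, with 1 higher and 3 lower at an unadjusted p under 0.05 and 1 called by DESeq2.

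For the lists that follow, 2.62% of all genes passed as higher and 3.43% as lower in *Fmr1* KD, and 0.831% and 0.968% in *Zfp598* KD. Of 16 tested genes for other MAP3 kinases, *Map3k2*, *Map3k3* and *Map3k5* fell in *Fmr1* KD, by 0.57, 0.39 and 0.48 (adjusted p = 0.00304, 0.0104 and 0.0434), and the other 13 did not pass. Of 10 tested genes that hold or activate MAP3K8, *Ikbkb*, which encodes IKK-beta, rose by 0.51 in *Fmr1* KD (75.9 ± 10.8 against 53.5 ± 3.60 CPM; adjusted p = 0.00782). In *Zfp598* KD 0 genes of either list passed in edgeR's test, with 3 and 1 at an unadjusted p under 0.05 and 0 by DESeq2. Of 12 ERK substrates and downstream kinases, *Ets2* rose by 0.43 (adjusted p = 0.0322) and *Rps6ka3*, which encodes the kinase RSK2, fell by 0.40 (adjusted p = 0.0322) in *Fmr1* KD. In *Zfp598* KD 0 of the 12 passed in edgeR's test, with 2 higher at an unadjusted p under 0.05 and 1 by DESeq2.

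A second list of ERK-responsive genes, apart from the 9 members, held 29 tested genes. Over all genes 2.62% passed as higher and 3.43% as lower in pooled *Fmr1* KD, and 0.831% and 0.968% in pooled *Zfp598* KD. In *Fmr1* KD *Ccnd1*, which encodes cyclin D1, rose by 0.53 (101.2 and 167.5 CPM with siRNAs A and B, against 98.9 and 86.6 CPM; adjusted p = 0.0359), *Errfi1*, an inhibitor of EGF receptors, fell by 0.59 (adjusted p = 0.00718) and *Klf10* fell by 0.37 (adjusted p = 0.0441). In *Zfp598* KD 0 of the 29 passed in edgeR's test, with 2 higher and 3 lower at an unadjusted p under 0.05 and 1 in each direction by DESeq2. By siRNA, 5 rose and 2 fell with *Zfp598* siRNA A (median log2 fold change 0.28; 5.60% and 5.43% of all genes) and 2 rose and 14 fell with *Zfp598* siRNA B (median -0.35; 12.0% and 13.2% of all genes). With *Fmr1* siRNA A 3 rose and 7 fell (9.35% and 12.7% of all genes), and with *Fmr1* siRNA B 3 rose and 3 fell (11.0% and 10.4%). Of 11 tested interferon response genes 4 rose in pooled *Fmr1* KD (2.62% of all genes), among them *Cxcl10*, *Rsad2* and *Oasl2* (log2 differences of 4.06, 2.38 and 1.41; adjusted p = 0.00348, 0.0172 and 0.0204). By siRNA, 6 of the 11 rose with *Fmr1* siRNA A (median log2 fold change 0.68; 9.35% of all genes), the median with *Fmr1* siRNA B was 0.11, and the knockdown effect was lower with siRNA B than with siRNA A at 5 of the 11 in the interaction test (8.86% of all genes). Of the neuroblastoma markers, *Gata3* rose by 0.57 in *Zfp598* KD (22.2 ± 3.59 against 14.9 ± 1.39 CPM; adjusted p = 0.0197).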

How the data were processed

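RNA-seq of N2A cells was read from the gene counts the authors deposited: whole-number counts of reads on exons, not normalized and not pooled. Per the study's methods, reads were trimmed with TrimGalore, aligned to GRCm39 with STAR and counted with featureCounts. The annotation release, the strand setting and how multi-mapping reads were counted are not given in the sources used here, so reads from overlapping genes (at *Map3k8*, *Dusp6*, *Spry2*, *Etv4* and *Etv5*) cannot be told apart. Groups came from the sample labels.

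Here, symbols and coordinates came from GENCODE M39. Low genes were removed by filterByExpr over the 6 siRNA groups (at least 10 counts, 15 in total), libraries were scaled by TMM, and genes were tested with edgeR 4.0.16 (glmQLFit and glmQLFTest, R 4.3.3) over all 18 libraries. Pooled comparisons used a model with 3 conditions, and comparisons of siRNAs a model with 6 groups. Benjamini-Hochberg adjustment ran over 19003 genes, and passing means an adjusted p under 0.05 (two-sided). DESeq2 1.42.0, which the study used, was an alternative. CPM values were computed by edgeR on TMM-scaled library sizes. The scripts were tested on simulated data. Libraries were not paired by replicate number. Correlations of deviations across groups were -0.311 to 0.255 (median 0.0373) for the same number and -0.332 to 0.462 (median -0.0115) for different numbers, which does not settle whether the numbers pair libraries. Library pairs of an siRNA differed beyond sampling noise (chi-square per degree of freedom of 2.78 or more in 18 pairs). The members, the gene lists and the tests were chosen with earlier results of these data known. The named genes are the members, the siRNA targets, up to 3 passing genes with the smallest adjusted p of each list and pooled comparison, and the 5 genes most correlated with *Map3k8* and with *Dusp6*.

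Alternatives were RLE size factors, TMM without the most counted feature, no filter, DESeq2, a replicate block, a block for the siRNA letter, both Scramble siRNAs as control, a 2-fold minimum, and each library left out in turn. One more, without *Zfp598* siRNA A replicates 2 and 3, was chosen after seeing the data.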

Additional observations from a re-analysis of the deposited data

Results flagged for a closer look

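The knockdown effects of siRNA B and siRNA A, each against its Scramble siRNA, differed in edgeR's interaction test at 4 output genes for *Fmr1* and at 8 for *Zfp598*. For *Fmr1* the log2 differences (B minus A) were 0.67 for *Spry2* (adjusted p = 0.00769), -0.65 for *Spred1* (adjusted p = 0.000376), -1.94 for *Egr1* (adjusted p = 0.000240) and -0.33 for *Etv5* (adjusted p = 0.0384). The *Etv5* value did not pass in 9 of the 18 fits that left out 1 library, among them that without *Fmr1* siRNA B replicate 1 (-0.33, adjusted p = 0.0715). For *Zfp598* they were -1.91 for *Dusp4* (adjusted p = 4.25e-05), -1.43 for *Dusp6* (adjusted p = 7.81e-07), -1.14 for *Spry2* (adjusted p = 6.91e-05) and -0.75 for *Spry4* (adjusted p = 0.00654). *Spred1* was at -1.47 (adjusted p = 4.11e-08), *Egr1* at -3.90 (adjusted p = 1.48e-07), *Etv4* at -0.50 (adjusted p = 0.00606) and *Etv5* at -0.76 (adjusted p = 5.75e-05). Without *Zfp598* siRNA A replicates 2 and 3, which keeps only replicate 1 of that siRNA, *Dusp4* was at -1.27 and *Spry4* at -0.48. No library stood out by Dixon's criterion in the 30 member-by-condition groups of 6 libraries, a criterion by which chance marks about 1 in 20 groups. Each group holds both siRNAs of a condition, and a difference between them widens the range. A library that departs from its own siRNA can therefore go unmarked.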

How the results depend on the processing

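Of 1871 member values recomputed under the alternatives, 1776 were kept, 61 lost their call, 24 gained one and 10 reversed. Kept means the same direction and side of the threshold for output genes. For *Map3k8*, without a test, it means the same direction and a shift below its SD between libraries of an siRNA. Outside the pooled comparisons only values that passed at first were recomputed, so gained calls could be counted only in the pooled ones. The cause was not tested for any. Of the 9 output genes in *Fmr1* KD, 1 passed (*Egr1*) with the most counted feature left out of TMM, and 2 (*Dusp6* and *Egr1*) without a filter, with DESeq2, with a block for the siRNA letter and without *Zfp598* siRNA A replicates 2 and 3. Against both Scramble siRNAs 7, 3 and 4 passed for *Fmr1* siRNA A, *Fmr1* siRNA B and *Zfp598* siRNA A. With a 2-fold minimum, 0, 1, 2 and 2 passed for *Fmr1* siRNAs A and B and *Zfp598* siRNAs A and B, 1, 1 and 3 between the Scramble, *Fmr1* and *Zfp598* siRNAs, and 1 and 5 for the *Fmr1* and *Zfp598* interactions. Without *Zfp598* siRNA A replicates 2 and 3 the pooled *Zfp598* KD values of *Dusp4* and *Dusp6* reversed, to -0.22 and -0.19.

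Over all genes, 1149 passed in *Fmr1* KD and 342 in *Zfp598* KD. DESeq2 gave 1747 and 914, the letter block 1797 and 749, the fit without *Zfp598* siRNA A replicates 2 and 3 1790 and 1149, and a 2-fold minimum 204 and 85. *Zfp598* siRNA A gave 3169 against both Scramble siRNAs, 925 without its replicates 2 and 3, where *Zfp598* siRNA B against A gave 2757. With a 2-fold minimum the siRNA comparisons gave 674, 793, 265, 981, 662, 777 and 1444, in the order above, and the interactions 1314 and 1346.

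With 1 library left out, *Fmr1* KD gave 639 to 1449 genes and 0 to 2 output genes, *Zfp598* KD 100 to 819 genes and 0 to 1 output gene (*Etv4*, without *Zfp598* siRNA A replicate 1), *Zfp598* siRNA A 1022 to 4656 genes and Scramble siRNA B against A 3 to 7 output genes. In *Zfp598* KD *Dusp6* ranged from -0.073 to 0.15 and *Spry2* from -0.20 to 0.029. Correlations of deviations were over 0.1 in 9 of 45 pairs of libraries with the same replicate number and in 9 of 90 with different numbers. Whether replicate numbers pair the libraries is therefore not settled, and the main fits used no pairing. With a replicate block 203 genes passed in *Zfp598* KD, and the output gene counts were the same in every comparison and interaction except *Zfp598* siRNA B against A (7 in place of 6). Depth limits *Map3k8*, which had 173 counts in all.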
